A study of Mus musculus with 26 samples.

Results

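The genes described here encode the translation initiation factors (eIF1 to eIF6, with their binding and exchange partners) and the cytosolic elongation factors eEF1 and eEF2 (with the enzymes that modify them). They were chosen by symbol: every probe set annotated to a single gene whose symbol starts with Eif and a digit from 1 to 6, or with Eef1 or Eef2, except the Eif2ak kinases and Eef1e1. That rule found 108 of 22626 probe sets, for 47 of 12393 genes, and each gene was represented by its probe set with the highest mean signal. The rule used no measured difference between groups.

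The cells were S49, a mouse T-lymphoma line, as the WT line and as Kin-, a variant line known to lack activity of cAMP-dependent protein kinase (PKA). Total RNA was put on 26 arrays. Each line was untreated (0 h, 4 arrays) or received the cell-permeable cAMP analog 8-CPT-cAMP at 100 µM for 2, 6 or 24 h (3 arrays at each time), and no untreated arrays accompany the later times. The labels do not say if replicate arrays stand for separate cultures, and p-values therefore measure only how far these arrays spread, a spread that may be technical.

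Initiation begins when eIF2 carries the initiator tRNA to the small ribosomal subunit together with eIF1, eIF1A, eIF3 and eIF5, while eIF4F (the cap-binding protein eIF4E, a scaffold and the helicase eIF4A) recruits the mRNA. eIF2B recharges eIF2 with GTP, and the 4E-binding proteins hold eIF4E away from the scaffold. eEF1 then delivers aminoacyl-tRNAs and eEF2 moves the ribosome along. In T cells, high output of this machinery is known to accompany growth and division, and cAMP acting through PKA is known to arrest WT S49 cells and later to kill them.

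Levels are square roots of the deposited values, taken as log2. The deposited scale is not given in the sources used here, so sizes in log2 units depend on that assumption. A member was called higher or lower where limma's adjusted p, corrected over all 22626 probe sets, was under 0.05. T-cell markers were present: all 8 measured had mean levels from 9.22 to 12.54, above the middle of all probe sets. Markers of other cell types had mean levels from 2.55 to 7.62 over 13 genes, of which 3 (Alb, Csf1r and Pecam1) were also above that middle. Among the 13, Pecam1 was higher in WT at 2, 6 and 24 h (by 0.95, 1.47 and 2.05). Adgre1 was higher at 2 h (by 0.23) and Itgam at 24 h (by 2.11), while the other 10 were not called. The mean level of the 13 genes ran from 4.44 to 4.49 over the untreated WT arrays and from 4.59 to 4.95 at 24 h, and that of the 8 T-cell markers from 11.34 to 11.63 and from 11.92 to 12.13. The part of these shifts in the results was not tested. The arrays fell into a pair of sets by array number, arrays 1 to 14 (10 arrays) and arrays 16 to 47 (16 arrays), separated without overlap on the first component of within-group variation, which held 35.5% of that variation. Both sets hold all 8 groups, and the labels do not say what the sets are. Values within each set follow the first counts. The cAMP-induced gene Crem was 6.07 higher, and Myc fell by 2.46, in WT at 2 h, and neither was called in Kin- at any time.

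Of the 47 members, few were lower in WT cells at 2 h, and at 24 h about as many were lower as were not. At 2 h, 7 members were lower and 1 was higher, against a background of 7.25% of all probe sets lower and 7.11% higher. By 6 h, 19 members (40.4%) were lower and 3 higher, where 10.1% and 9.52% of all probe sets were (19.6% in either direction, against 22 members). At 24 h, 23 members (48.9%) were lower and 5 (10.6%) higher, against 15.6% and 14.4% (30% in either direction, against 28 members). The members' median change went from -0.07 at 2 h to -0.20 at 6 h and -0.28 at 24 h, while the median of all probe sets stayed at 0.05, -0.03 and -0.01. Most changes were modest in size. Called falls of at least 1 log2 unit numbered 1, 2 and 5 at 2, 6 and 24 h (background 1.63%, 2.48% and 5.72%), and called rises of that size 0, 1 and 1 (2.29%, 2.84% and 5.82%). Without WT 2 h array 17 the 2 h count of lower members dropped to 3, and without WT 0 h array 13 the 6 h count of higher members dropped to 1.

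These genes give bright signals, which bears on how often they can be called. Of the 47 members, 41 lie among the brightest 5657 probe sets and only Eif2s3y, Eif4g3 and Eef2kmt have dim ones. Among those 5657, 6 of 41 members (14.6%) were lower at 2 h against 12.6% of its probe sets, which is close to the background. At 6 h the members' share was 43.9% against 24.6%, and at 24 h 53.7% against 38.9%. The members' share of rises was 2.44%, 7.32% and 12.2% at 2, 6 and 24 h, against 11.1%, 18.2% and 23% of these bright probe sets. Bright probe sets as a whole thus also had more falls than rises at 24 h, and their median change was not computed. With the array set as a term in the fit, 10, 21 and 25 members were lower and 1, 5 and 8 higher at 2, 6 and 24 h. All 8, 22 and 28 calls made without the term were kept. In that fit 9.73%, 12.5% and 17.7% of all probe sets were lower and 9.31%, 11.7% and 16.2% higher. Within arrays 16 to 47, which hold only a pair of arrays in each group, the counts were 9, 22 and 25 lower and 3, 4 and 7 higher. Of all probe sets there, 8.4%, 11.2% and 16.6% were lower and 12%, 10% and 15.3% higher. Within arrays 1 to 14, which hold 1 treated WT array at each time, the members' median change was -0.05, -0.20 and -0.19. Calls within that set assume that the lone array varies like the other groups.

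**Figure D1:**
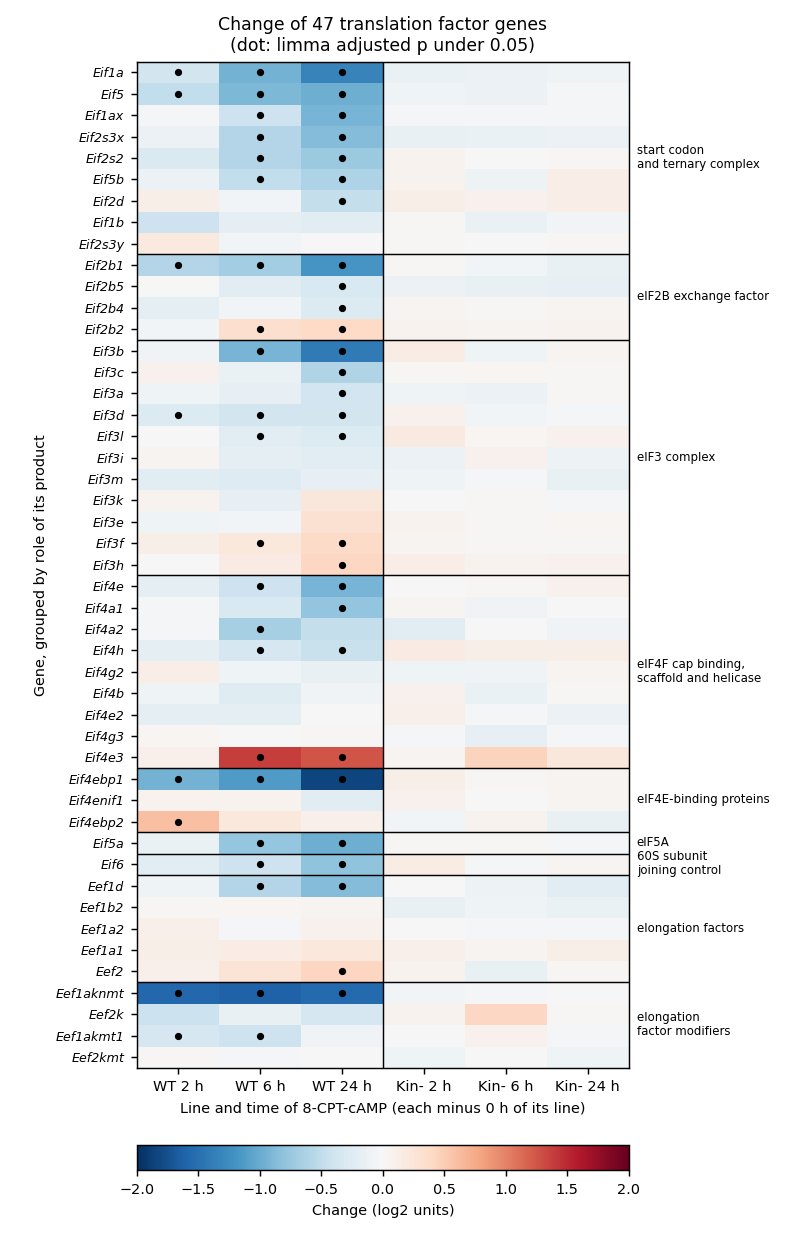
Change of each of the 47 genes from 0 h of its own line (colour, log2 units) in WT and Kin- cells at 2, 6 and 24 h, grouped by the role of the product. Dots mark adjusted p under 0.05: 8, 22 and 28 in WT and none in Kin-.

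By role, 21 of 38 initiation members were lower at 24 h and 4 higher, with a median change of -0.33. The background was 15.6% lower and 14.4% higher over all probe sets, and 38.9% and 23% among the brightest 5657, where most members lie. Of the 5 elongation factors 1 was lower and 1 higher, with a median change of 0.08. These shares were near the background over all probe sets and not above that of the bright ones. The start codon and ternary complex genes had 7 of 9 members lower and none higher (median -0.74). Whether roles differ from each other was not tested.

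The promoters of the members were examined for sequences known to serve factors that act on growth and on cAMP responses. RefSeq windows (build GRCm38.p6) from 250 bases before to 50 after the annotated start were found for 37 of the 47 members. The E-box CACGTG, bound by MYC and related factors and read the same on both strands, occurred in 9 of the 37 (24.3%), against 7.24% of the windows of 27025 genes. These 9 were spread over all outcomes at 24 h in WT: 4 of 19 lower members (Eef1aknmt, Eif3a, Eif4a1 and Eif4h), 2 of 3 higher ones (Eef2 and Eif3f) and 3 of 15 not called (Eef2k, Eif1b and Eif3k). A match describes letters in a window and does not show binding. Of the called members, the stretches below are shown for those whose match lies upstream of the start, so that the fallers can be compared with the risers. Capitals mark the E-box. The first 3 genes fell and the last 2 rose, and their windows lie at chr1:162548457-162548522 (minus strand), chr11:69672577-69672642 (minus), chr5:134639470-134639535 (minus), chr10:81176558-81176623 (plus) and chr7:108934317-108934382 (plus).
Eef1aknmt: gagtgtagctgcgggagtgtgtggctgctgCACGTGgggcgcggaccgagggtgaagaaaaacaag
Eif4a1: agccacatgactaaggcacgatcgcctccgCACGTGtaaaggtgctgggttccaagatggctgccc
Eif4h: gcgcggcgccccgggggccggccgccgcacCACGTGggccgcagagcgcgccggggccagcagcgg
Eef2: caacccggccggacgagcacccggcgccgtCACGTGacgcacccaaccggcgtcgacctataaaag
Eif3f: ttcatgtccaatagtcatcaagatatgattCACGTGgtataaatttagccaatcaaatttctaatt

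The cAMP response element TGACGTCA (its own reverse complement) occurred in 1 of 37 members (Eef2), against 1.88% of all windows, and TGATGCAA, a C/EBP-ATF element searched on both strands, in none, against 0.929%. Many mRNAs of the translation machinery are known to start with a C followed by pyrimidines, the 5′ TOP motif read by mTORC1 signalling. A C within 5 bases of the annotated start that opens a run of at least 5 pyrimidines occurred in 8 of 37 members (21.6%), against 18.5% of all windows, a similar share. These 8 were 4 of 19 lower members at 24 h in WT (Eif2b5, Eif2s3x, Eif3b and Eif3l), 2 of 3 higher ones (Eif2b2 and Eif3f) and 2 of 15 not called (Eef1a1 and Eif2s3y). The scan read a single annotated start per gene and found no such run at Eef2 or Eef1b2. A match or its lack therefore does not show whether an mRNA carries the 5′ TOP motif, which was not tested. One start of each outcome is shown with the run in capitals: Eif3b fell, Eif3f rose and Eef1a1 was not called. They lie at chr5:140419290-140419319 (plus strand), chr7:108934400-108934429 (plus) and chr9:78481710-78481739 (minus).
Eif3b: ctagcggcgcgcggtgaCTTCTgggagtcg
Eif3f: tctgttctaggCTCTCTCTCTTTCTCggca
Eef1a1: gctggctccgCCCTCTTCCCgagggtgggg

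Among the genes for start codon selection, Eif1a, which encodes eIF1A, the factor that occupies the decoding site during scanning, fell most. Its WT levels were 10.37, 10.33, 10.41 and 10.47 at 0 h, then 10.20, 9.88 and 10.00 at 2 h, 9.38, 9.60 and 9.37 at 6 h and 9.19, 9.01 and 8.99 at 24 h. No array of a later time overlapped 0 h, and the 13 Kin- arrays lay between 10.45 and 10.93. The change was -0.37 ± 0.10 (SE, 3 against 4 arrays) at 2 h, -0.95 ± 0.10 at 6 h and -1.34 ± 0.10 at 24 h (limma adjusted p = 2.12e-09). Its X-linked paralog Eif1ax held its 0 h level of 12.02, 11.98, 12.05 and 12.04 at 2 h (12.01, 12.04 and 11.95) before lower values of 11.64, 11.60 and 11.60 at 6 h and 11.33, 10.90 and 11.05 at 24 h. The 24 h change of Eif1ax was -0.93 ± 0.07 (adjusted p = 2.92e-09), and the Kin- arrays stayed between 11.94 and 12.17. The pair encode nearly the same protein, and cross-hybridisation between their probe sets was not tested. Eif1b, a paralog of eIF1, was not called at any time without a term for the array set: its WT values were 11.00, 11.03, 10.92 and 10.96 at 0 h, 10.62, 10.59 and 10.50 at 2 h, 11.15, 10.49 and 10.69 at 6 h and 10.81, 10.70 and 10.77 at 24 h. Its 2 h arrays lay below 0 h, and with the array set as a term Eif1b was called lower at that time (-0.36, adjusted p = 0.0109), as it was within arrays 16 to 47 (-0.40, adjusted p = 0.00731).

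Eif5, the GTPase activator of eIF2 that times start codon recognition, fell from 2 h on. Its 4 arrays of 0 h lay between 11.99 and 12.09, followed by 11.67, 11.46 and 11.50 at 2 h, 11.02, 11.30 and 11.10 at 6 h and 11.26, 10.90 and 11.03 at 24 h, and the Kin- arrays had a median of 12.30 and a highest value of 12.56. All 9 treated WT arrays were below every Kin- array, and most of the fall was reached by 6 h. The change was -0.50 ± 0.12, -0.90 ± 0.12 and -0.98 ± 0.12 at 2, 6 and 24 h (adjusted p = 7.09e-07 at 24 h).

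The genes of the eIF2 subunits gamma and beta were lower at 6 and 24 h. Eif2s3x, for the GTP-binding gamma subunit, read 10.82, 10.83, 11.07 and 10.93 at 0 h, 10.77, 10.90 and 10.74 at 2 h, 10.26, 10.44 and 10.30 at 6 h and 10.18, 9.96 and 10.01 at 24 h. The 2 h arrays overlapped 0 h and the later ones did not (24 h change -0.86 ± 0.10, adjusted p = 4.83e-07), while the Kin- arrays lay between 10.78 and 11.23. The Y-linked copy Eif2s3y gave dim signals of 2.90, 2.90, 2.89 and 2.95 at 0 h, 2.85, 3.26 and 3.22 at 2 h, 2.82, 2.91 and 2.87 at 6 h and 2.69, 3.01 and 3.07 at 24 h, and was not called. Eif2s2, for the beta subunit, fell by 0.59 ± 0.11 at 6 h and by 0.74 ± 0.11 at 24 h (adjusted p = 1.88e-05). At 2 h Eif2s2 changed by -0.29 ± 0.11, which was called lower once the array set was a term (-0.33, adjusted p = 0.000566) and within arrays 16 to 47 (-0.28, adjusted p = 0.0364). Eif5b, which joins the large subunit, fell by 0.50 ± 0.14 and 0.61 ± 0.14, and Eif2d, an unconventional tRNA-delivery and recycling factor, fell at 24 h by 0.47 ± 0.08 (adjusted p = 0.000119).

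The 4 measured eIF2B genes moved in both directions, 3 falling and 1 rising at 24 h (background 15.6% and 14.4% of all probe sets). Eif2b1, the alpha regulatory subunit, read 9.36, 9.32, 9.52 and 9.28 at 0 h, 8.76, 8.54 and 9.03 at 2 h, 8.66, 8.74 and 8.61 at 6 h and 8.31, 8.28 and 7.98 at 24 h. Every treated WT array was below all 0 h arrays and all Kin- arrays (9.07 to 9.40). It changed by -0.59 ± 0.10, -0.70 ± 0.10 and -1.18 ± 0.10 (adjusted p = 8.61e-09 at 24 h). Eif2b2, the beta subunit, rose in its brightest probe set by 0.34 ± 0.08 at 6 h and 0.40 ± 0.08 at 24 h (adjusted p = 0.000288), with no overlap at either time. Eif2b5, the catalytic epsilon subunit, fell by 0.30 ± 0.09 at 24 h (adjusted p = 0.0184) with overlapping arrays, and Eif2b4, the delta subunit, by 0.27 ± 0.08 (adjusted p = 0.0193). Within arrays 16 to 47 the Eif2b4 call was lost (change -0.11, adjusted p = 0.111). The Eif2b2 probe set carries the suffix _x_at, which on this array type marks probes that can match other transcripts. The other 2 probe sets of Eif2b2 were not called at any time (-0.06 ± 0.11 and -0.13 ± 0.11 at 24 h).

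eIF3, the scaffold that binds the small subunit and gathers the other factors, had 11 measured subunit genes, called in both directions. Eif3a, Eif3b, Eif3c, Eif3d and Eif3l were lower at 24 h, Eif3f and Eif3h were higher, and Eif3e, Eif3i, Eif3k and Eif3m were not called. At that time 15.6% of all probe sets were lower and 14.4% higher, and 38.9% and 23% of the brightest 5657. Whether eIF3 differs from these shares was not tested. Eif3b, an RNA-binding core subunit, fell most: 10.40, 10.19, 10.07 and 10.11 at 0 h, 10.48, 10.10 and 9.79 at 2 h, 9.66, 8.95 and 9.18 at 6 h and 9.66, 8.29 and 8.41 at 24 h. The 6 h and 24 h arrays did not overlap 0 h, the Kin- arrays ran from 9.87 to 10.58, and the array of 24 h from arrays 1 to 14 (9.66) stood well above the other two. The change was -0.93 ± 0.25 at 6 h and -1.41 ± 0.25 at 24 h (adjusted p = 0.000123). Within arrays 1 to 14 it was -0.63 at 24 h and not called. Eif3c, a core subunit, fell by 0.60 ± 0.10 at 24 h (adjusted p = 8.92e-05), Eif3d, a cap-contacting subunit, by 0.37 ± 0.07, Eif3a, the largest subunit, by 0.38 ± 0.13 and Eif3l, a peripheral subunit, by 0.28 ± 0.07.

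The risers were Eif3f and Eif3h, which carry the MPN domains of the complex. Eif3f read 13.27, 13.10, 13.28 and 13.28 at 0 h and 13.45, 13.74 and 13.66 at 24 h, a change of 0.38 ± 0.07 (adjusted p = 7.56e-05). Eif3h read 12.84, 12.89, 12.59 and 12.62 at 0 h and 13.15, 13.13 and 13.14 at 24 h, a change of 0.41 ± 0.09 (adjusted p = 0.000807). In both, all 24 h arrays were above all 0 h arrays, and all 13 Kin- arrays were lower than them (13.06 to 13.28 for Eif3f, 12.33 to 12.77 for Eif3h). Without a term for the array set, the WT-minus-Kin- response at 24 h was called for Eif3f but not for Eif3h. The untreated mean of Eif3h was 12.51 in Kin- and 12.73 in WT. Eif3e changed by 0.30 ± 0.12 (adjusted p = 0.0623) and Eif3k by 0.22 ± 0.11 (adjusted p = 0.156), and both were called higher once the array set was a term in the fit (adjusted p = 0.0157 and 0.0479).

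**Figure D2:**
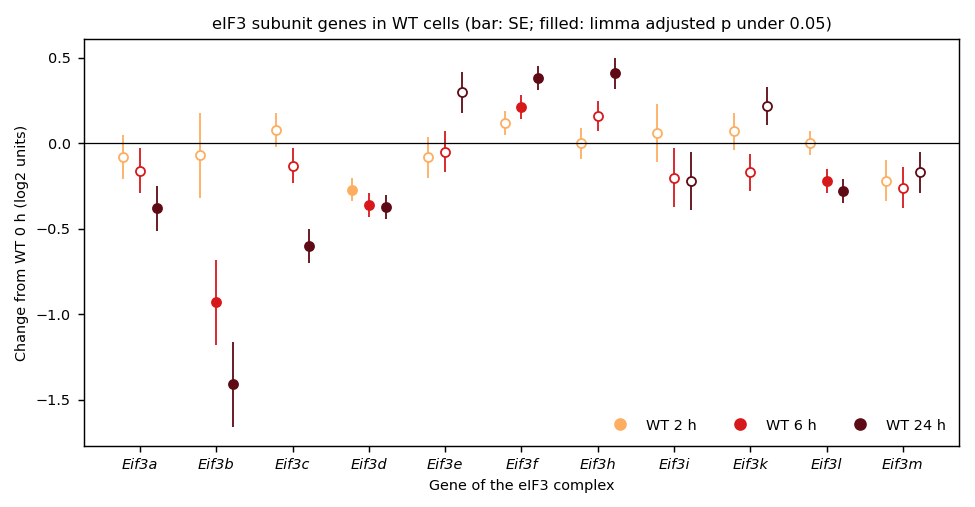
Change from WT 0 h (log2 units, bars are SE, 3 against 4 arrays) of the 11 measured eIF3 subunit genes at 2, 6 and 24 h; filled points have adjusted p under 0.05. Eif3b reached -1.41 at 24 h while Eif3f and Eif3h reached 0.38 and 0.41.

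Among the cap-binding genes, Eif4e fell while its paralog Eif4e3 rose. Eif4e, the cap-binding subunit of eIF4F, read 11.77, 11.72, 11.90 and 11.84 at 0 h, 11.49, 11.77 and 11.57 at 2 h, 11.16, 11.55 and 11.46 at 6 h and 10.87, 10.78 and 10.97 at 24 h. The groups separated from 6 h on, the Kin- arrays lay between 11.61 and 11.98, and the change at 24 h was -0.93 ± 0.10 (adjusted p = 3.82e-07). Eif4e3, an atypical cap-binding relative, read 9.24, 8.56, 9.24 and 9.63 at 0 h, 8.88, 9.37 and 9.55 at 2 h, 10.73, 10.50 and 10.42 at 6 h and 9.84, 10.83 and 10.59 at 24 h. Its change was 1.39 ± 0.39 at 6 h (adjusted p = 0.0135) and 1.26 ± 0.39 at 24 h (adjusted p = 0.0167), and no treated array of these times overlapped 0 h. The Kin- arrays spread from 7.15 to 9.74, the WT-minus-Kin- response was not called at any time, and the 24 h call was lost without WT 0 h array 13 (change 1.05, adjusted p = 0.0621), WT 24 h array 19 (1.05, 0.0966) or WT 24 h array 39 (1.17, 0.0642). Eif4e2, a cap-binding repressor known as 4EHP, was not called: 11.96, 11.99, 11.68 and 11.76 at 0 h, 11.76, 11.55 and 11.68 at 2 h, 11.76, 11.57 and 11.61 at 6 h and 11.91, 11.81 and 11.82 at 24 h. With the array set as a term Eif4e2 was called lower at 6 h (-0.17, adjusted p = 0.0355).

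Both genes of the helicase eIF4A had lower means at 6 and 24 h than at 0 h. Eif4a1 read 14.05, 13.94, 14.06 and 13.86 at 0 h, 14.01, 13.89 and 13.94 at 2 h, 13.79, 13.67 and 13.53 at 6 h and 13.56, 13.09 and 12.91 at 24 h, and was called at 24 h (-0.79 ± 0.11, adjusted p = 9.57e-06). Eif4a2 read 11.14, 11.19, 11.61 and 11.53 at 0 h, 11.11, 11.63 and 11.28 at 2 h, 10.45, 11.00 and 10.64 at 6 h and 11.05, 10.89 and 10.71 at 24 h, and was called at 6 h (-0.67 ± 0.18, adjusted p = 0.0118) but not at 24 h (-0.48 ± 0.18, adjusted p = 0.0548). The difference between the paralogs was not tested. At 24 h Eif4a2 was called with the array set as a term (-0.53, adjusted p = 0.00293) and within arrays 16 to 47 (-0.77, adjusted p = 0.00215). At 6 h Eif4a1 was called within arrays 16 to 47 (-0.36, adjusted p = 0.0327) and by a dimmer probe set (-0.62 ± 0.11, adjusted p = 0.000199). Eif4h, a helicase cofactor, fell by 0.34 ± 0.10 at 6 h and 0.45 ± 0.10 at 24 h, and Eif4b, another cofactor, was not called (-0.25 ± 0.11 at 6 h). For Eif4b, the array set as a term gave a call at 6 h (-0.27, adjusted p = 0.0329), and a slightly dimmer probe set was lower at 2 and 6 h (-0.20 ± 0.07 and -0.31 ± 0.07). The scaffold gene Eif4g1 was not among the 47 members, so the scaffold of eIF4F is not fully covered here. Of the other Eif4g genes, Eif4g2 read 13.61, 13.39, 14.08 and 13.92 at 0 h and 13.64, 13.58 and 13.58 at 24 h, and the dim Eif4g3 signal read 2.53, 2.64, 2.63 and 2.64 at 0 h and 2.59, 2.65 and 2.64 at 24 h. Neither was called at any time, and the arrays of 0 and 24 h overlapped in both.

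Eif4ebp1, the 4E-binding repressor that mTORC1 inactivates, had the largest change of all members. It read 10.88, 10.97, 10.61 and 10.98 at 0 h, 10.14, 9.63 and 9.98 at 2 h, 10.43, 9.03 and 9.72 at 6 h and 9.61, 8.73 and 8.73 at 24 h. Every treated WT array was below every 0 h array, and all 13 Kin- arrays (11.63 to 11.92) were above every WT array. The change was -0.94 ± 0.23, -1.13 ± 0.23 and -1.84 ± 0.23 at 2, 6 and 24 h (adjusted p = 1.68e-06 at 24 h). Its paralog Eif4ebp2 was higher at 2 h: 9.56, 9.52, 9.80 and 9.78 at 0 h, 9.93, 10.33 and 10.52 at 2 h, 9.85, 9.89 and 9.88 at 6 h and 9.74, 9.47 and 10.07 at 24 h. It was 0.60 ± 0.13 higher at 2 h (adjusted p = 0.00325), the only member called higher at that time, and was not called at 6 or 24 h. Dimmer probe sets of Eif4ebp2 were not called at any time, and 2 of them had values of 0.62 ± 0.28 (adjusted p = 0.118) and 0.63 ± 0.24 (adjusted p = 0.0565) at 24 h. Eif4enif1, the eIF4E transporter, was not called at any time, but was lower at 24 h with the array set as a term (-0.24, adjusted p = 0.0316).

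**Figure D3:**
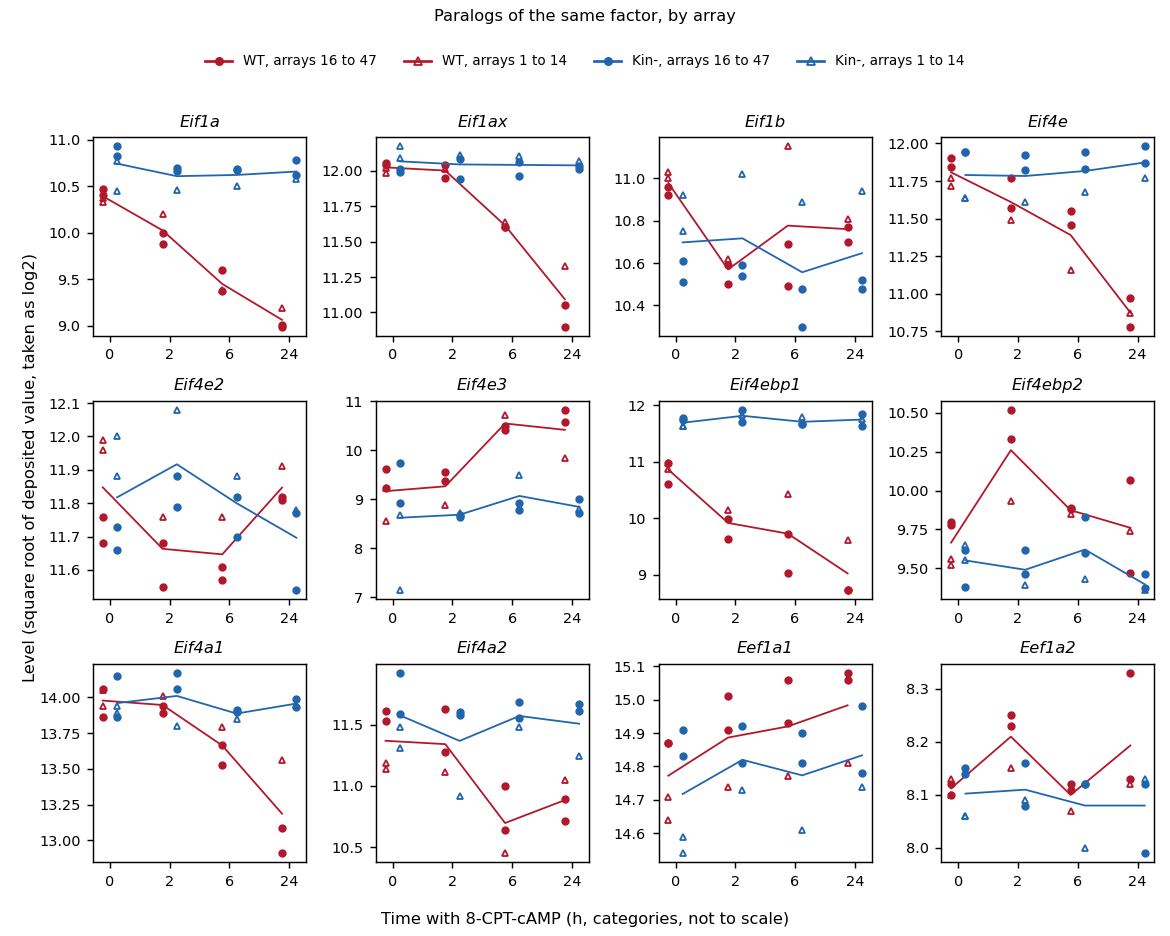
Level (square root of the deposited value, taken as log2) on each array for 12 members, WT red and Kin- blue, by hours with 8-CPT-cAMP. All are shown beside a paralog except Eif1b, a paralog of eIF1 and not of the eIF1A genes Eif1a and Eif1ax. Lines join group means and open triangles are arrays 1 to 14. Eif4e fell as Eif4e3 rose, and Eif4ebp2 peaked at 2 h (highest array 10.52) while Eif4ebp1 fell to 8.73.

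Eif5a, whose hypusine-bearing product relieves stalled ribosomes, read 14.80, 14.97, 14.86 and 14.71 at 0 h, 14.72, 14.72 and 14.68 at 2 h, 14.28, 13.94 and 13.96 at 6 h and 14.21, 13.56 and 13.83 at 24 h. It separated from 0 h at 6 h (-0.78 ± 0.11) and 24 h (-0.97 ± 0.11, adjusted p = 2.39e-07), with the Kin- arrays between 14.71 and 14.91. Its probe set carries the suffix _s_at, which marks probes shared between transcripts. Eif6, which keeps the large subunit from joining early and also serves its biogenesis, fell by 0.42 ± 0.12 at 6 h and 0.81 ± 0.12 at 24 h (adjusted p = 9.83e-06).

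Of the elongation factor genes, Eef1d fell and Eef2 rose. Eef1a1, which delivers aminoacyl-tRNA to the ribosome, read 14.71, 14.64, 14.87 and 14.87 at 0 h, 14.74, 15.01 and 14.91 at 2 h, 14.77, 15.06 and 14.93 at 6 h and 14.81, 15.06 and 15.08 at 24 h. It was not called (0.21 ± 0.11 at 24 h, adjusted p = 0.165), although with the array set as a term it was (0.17, adjusted p = 0.013). Its paralog Eef1a2, known from muscle and nerve, read 8.13, 8.10, 8.10 and 8.12 at 0 h, 8.15, 8.25 and 8.23 at 2 h, 8.07, 8.12 and 8.11 at 6 h and 8.12, 8.33 and 8.13 at 24 h and was not called. Eef1b2, an exchange factor for eEF1A, was within 0.06 ± 0.08 of its 0 h level at 24 h. Eef1d, another exchange subunit, was the exception that fell: 13.71, 13.82, 13.46 and 13.49 at 0 h, 13.67, 13.50 and 13.43 at 2 h, 13.31, 12.76 and 13.06 at 6 h and 13.26, 12.42 and 12.61 at 24 h. Its change was -0.58 ± 0.16 at 6 h and -0.86 ± 0.16 at 24 h (adjusted p = 0.00015), against Kin- values from 13.37 to 13.82. Eef2, the translocase, rose: 13.92, 13.97, 14.13 and 14.01 at 0 h against 14.27, 14.58 and 14.47 at 24 h, a change of 0.43 ± 0.10 (adjusted p = 0.00212). Its Kin- arrays ran from 13.70 to 14.24, below all 3 WT 24 h arrays, but the WT-minus-Kin- response of Eef2 was not called.

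Of the enzymes that modify the elongation factors, Eef1aknmt was lower at all 3 times and Eef1akmt1 at 2 and 6 h. Eef1aknmt, which methylates eEF1A and is also known as Mettl13, read 8.04, 7.99, 7.90 and 7.84 at 0 h, 6.58, 6.39 and 6.15 at 2 h, 6.90, 5.81 and 6.26 at 6 h and 7.30, 5.69 and 6.15 at 24 h. All treated WT arrays were below 0 h, and the arrays numbered 3 and 4 were higher than the others of 6 and 24 h. The changes were -1.57 ± 0.26, -1.62 ± 0.26 and -1.56 ± 0.26 (adjusted p = 6.33e-05 at 24 h), so nearly all of the change was present at 2 h, and the Kin- arrays lay between 8.09 and 8.62. Within arrays 1 to 14 the 24 h change was -0.72 and not called. Eef1akmt1, a lysine methyltransferase of eEF1A, fell by 0.33 ± 0.10 at 2 h and 0.41 ± 0.10 at 6 h and was back within 0.07 of 0 h at 24 h, its 24 h arrays being higher than those of 6 h (0.34 ± 0.10, adjusted p = 0.0256). Eef2k, the kinase that inhibits eEF2, was not called (-0.43 ± 0.24 at 2 h), and neither was the dim Eef2kmt, an eEF2 methyltransferase.

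**Figure D4:**
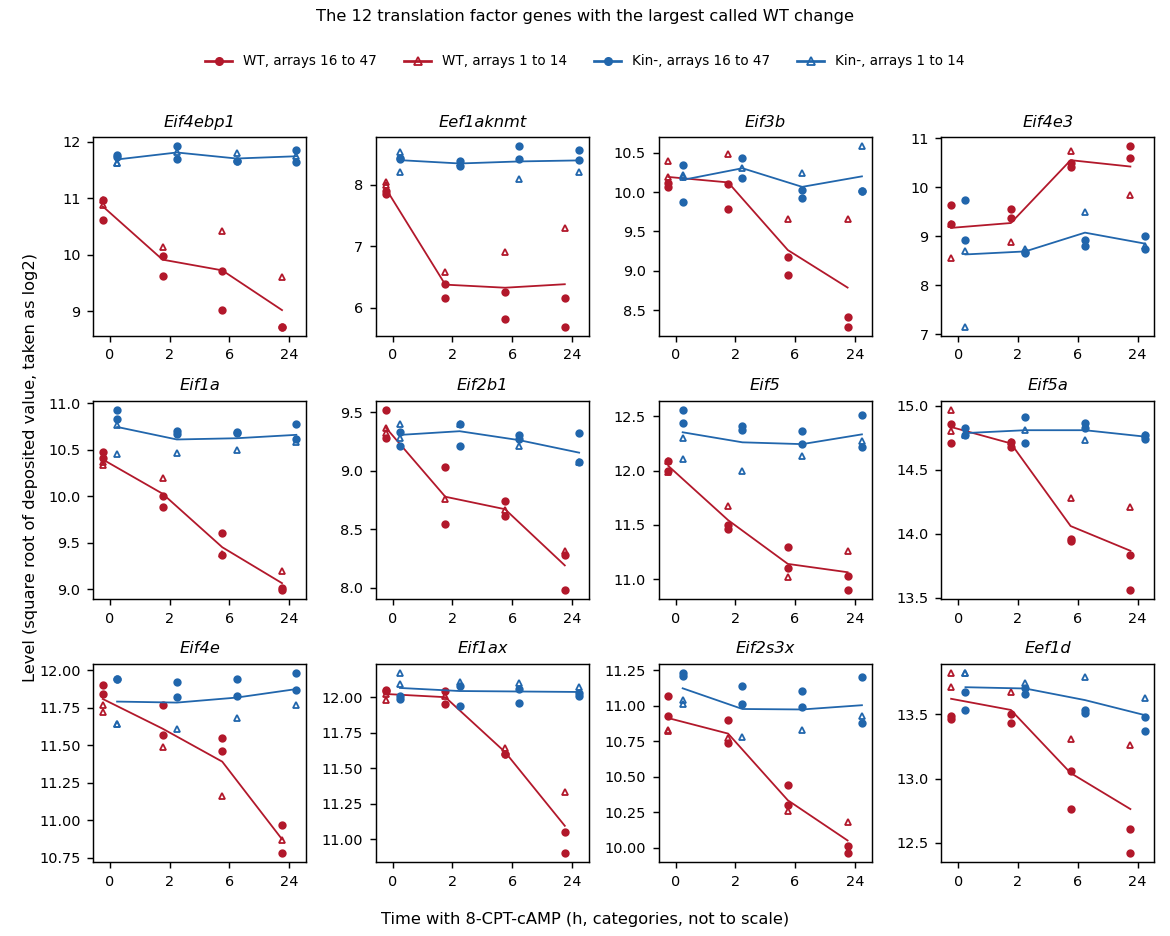
Level on each array (square root of the deposited value, taken as log2) of the 12 members with the largest called WT change, WT red and Kin- blue, by hours with 8-CPT-cAMP; lines join group means and open triangles are arrays 1 to 14. WT Eef1aknmt dropped by 2 h to between 6.15 and 6.58, while WT Eif1ax was still between 11.95 and 12.04.

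The members followed several time courses. Of the 31 called at 1 or more WT times, none was called in both directions. Eef1aknmt, Eif1a, Eif2b1, Eif3d, Eif4ebp1 and Eif5 were lower at all 3 times. Another 11 were lower from 6 h on, among them Eif1ax, Eif2s2, Eif2s3x, Eif4e, Eif5a and Eif6. In their brightest probe sets 6 were lower at 24 h only (Eif2b4, Eif2b5, Eif2d, Eif3a, Eif3c and Eif4a1). A dimmer probe set of Eif3a (mean level 11.30) was lower at 2 h (-0.57 ± 0.17, adjusted p = 0.0285). It was not called at 24 h (-0.45 ± 0.17, adjusted p = 0.0503). Tested directly, 7 members were lower at 6 h than at 2 h and 2 higher (background 6.66% and 6.37%), with Eif5a (-0.65 ± 0.11, adjusted p = 0.000536) and Eif1a (-0.58 ± 0.11, adjusted p = 0.0012) leading by p. From 6 to 24 h, 8 were lower and 2 higher (background 9.16% and 8.64%, together 17.8%), led by Eif1ax (-0.52 ± 0.08, adjusted p = 4.86e-05). These successive comparisons share arrays with those against 0 h.

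In Kin- cells no member was called at 2, 6 or 24 h with limma, and neither was any of the 22626 probe sets (background 0%). At an unadjusted p under 0.05, 1 member at 2 h (Eif3l), 1 at 6 h (Eif4g3) and 0 at 24 h passed, against 2.16%, 1.9% and 2.17% of all probe sets. The members' median Kin- change was 0.02, -0.01 and 0.02, and the range at 24 h was -0.22 to 0.22. The test of the WT response minus the Kin- response found 3 members lower and 1 higher at 2 h (background 3.41% and 3.51%, together 6.92%), 11 lower and none higher at 6 h (5.73% and 5.07%) and 20 lower and 2 higher at 24 h (11.3% and 10.2%). The largest differences at 24 h were those of Eif4ebp1 (-1.89 ± 0.33, adjusted p = 0.000163), Eef1aknmt (-1.56 ± 0.37, adjusted p = 0.00345), Eif3b (-1.46 ± 0.36, adjusted p = 0.0042) and Eif1a (-1.25 ± 0.14, adjusted p = 1.78e-06). The risers Eif3f (0.35 ± 0.09) and Eif2b2 (0.33 ± 0.11) also differed between the lines.

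Between the untreated lines, only Eif4ebp1 was called, being 0.83 ± 0.21 higher in Kin- (adjusted p = 0.0362; background 1.58% higher and 1.42% lower). Its 4 untreated Kin- arrays read 11.63, 11.63, 11.73 and 11.77, above the WT range of 10.61 to 10.98. At an unadjusted p under 0.05 there were 11 of 47 members, against 11.5% of all probe sets. The count of called members depended on the arrays used, from 0 to 3 with 1 array left out. With the array set as a term the count was 8, of which 6 were lower and 2 higher in Kin-. Of all probe sets, 2.84% were lower and 3.14% higher in that fit. Eif2b2, Eif3h and Eif4h were among the members lower in Kin-.

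Other probe sets of the same genes, where called, moved the same way. Of the 47 members, 27 have several probe sets, and among the members with at least 2 called probe sets (5, 13 and 16 at 2, 6 and 24 h) none had calls of opposite sign. Sizes and timing differed. A dimmer probe set of Eif4e fell by 0.98 ± 0.12 at 2 h (adjusted p = 4.03e-06), when the probe set described above changed by -0.19 ± 0.10. Dimmer probe sets of Eif2s2 and Eif1ax likewise fell by 1.08 ± 0.19 and 0.98 ± 0.29 at 2 h, where the brightest ones changed by -0.29 ± 0.11 and -0.03 ± 0.07. The early calls were also made on power 0.75 of the deposited values (adjusted p = 4.26e-06 for Eif4e, 0.000391 for Eif2s2 and 0.0277 for Eif1ax). Which transcripts these probe sets detect was not analysed here. Both probe sets of Eif4e3 rose at 6 h (1.39 and 1.67), and the second probe set of Eif5a fell further, by 1.78 ± 0.23 at 24 h.

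**Figure D5:**
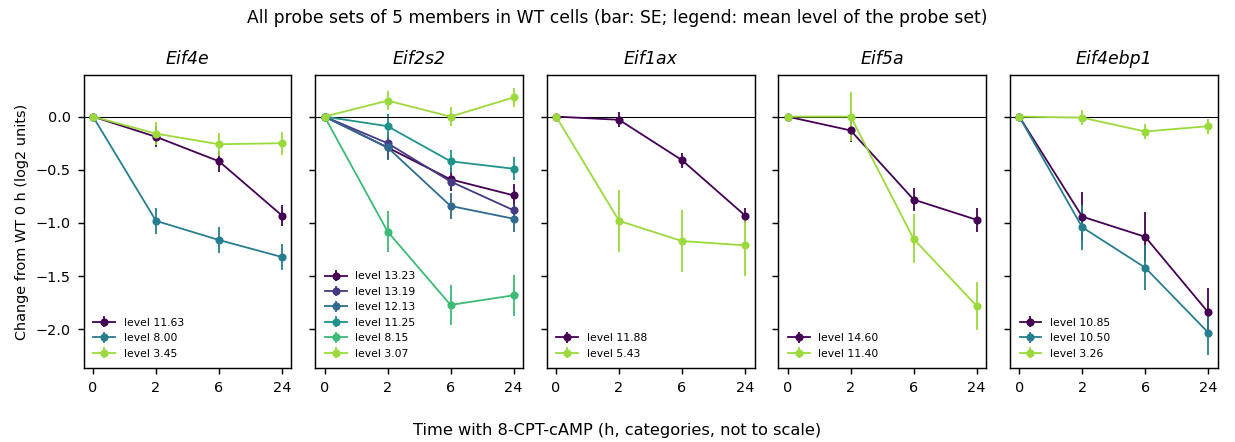
Change from WT 0 h (log2 units, bars are SE) of every probe set of Eif4e, Eif2s2, Eif1ax, Eif5a and Eif4ebp1 at 2, 6 and 24 h; the legend gives each probe set's mean level over 26 arrays. In Eif4e, Eif2s2 and Eif1ax a probe set of lower level had already fallen by 0.98 to 1.08 at 2 h; the 3 dimmest sets, with mean levels from 3.07 to 3.45, were not called.

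Of 41 measured regulators and partners of these factors, 13 were lower and 10 higher in WT at 24 h (10 and 7 at 2 h, 15 and 6 at 6 h). The background over all probe sets was 15.6% lower and 14.4% higher at 24 h, 7.25% and 7.11% at 2 h and 10.1% and 9.52% at 6 h, and no test of the list against it was made. The 4 regulators named here were chosen for the size of their rises, after their values were seen. Pdcd4, an inhibitor of eIF4A, rose by 1.63 ± 0.15, 1.83 ± 0.15 and 2.60 ± 0.15 at 2, 6 and 24 h (adjusted p = 2.79e-11 at 24 h). Eif2ak3 (PERK), a kinase of eIF2, rose by 1.84, 1.98 and 2.76, each ± 0.16. Ppp1r15a (GADD34), which brings a phosphatase to eIF2, rose by 3.83 ± 0.22 at 2 h and by 2.12 ± 0.22 at 24 h. Ddit4 (REDD1), an inhibitor of mTORC1, rose by 1.72, 1.72 and 1.89, each ± 0.41. PERK and GADD34 have opposed actions on eIF2.

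Of 7 measured termination and recycling genes, 4 were lower at 24 h and none higher, among them Abce1, the ribosome recycling ATPase (-1.34 ± 0.17), and the release factor genes Gspt1 (-1.34 ± 0.13) and Etf1 (-1.11 ± 0.11). Mcts2, a recycling-factor relative, was 1.33 ± 0.28 higher at 2 h only. Of 6 genes for hypusine and diphthamide, the modified residues of eIF5A and eEF2, the number lower was 3 at 2 h, 5 at 6 h and 3 at 24 h. None was higher. Those lower at 6 h included Dph2 (-1.24 ± 0.13) and Dph6 (-1.02 ± 0.11), and Dph2 was already lower at 2 h (-1.07 ± 0.13). The mitochondrial elongation factor gene Gfm1 fell by 1.23 ± 0.12 at 24 h, with 3 of 5 mitochondrial factors lower and 1 higher. Over all probe sets, 7.25%, 10.1% and 15.6% were lower at 2, 6 and 24 h, and 7.11%, 9.52% and 14.4% higher. These short lists were not tested against those shares. None of these 41 genes was called in Kin- at any time.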

How the data were processed

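The authors deposited 1 value per probe set and array, a score for which the sources used here give neither scale nor normalization. Scores ran from 0.375 to 267 and their array medians from 29.1 to 30.6, so the arrays had been brought to a like scale. Square roots of the scores lie where log2 intensities would, and were taken as log2. That is an assumption, on which sizes and comparisons of sizes depend.

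limma 3.58.1 in R 4.3.3 (lmFit and eBayes) was fitted to all 22626 probe sets and 26 arrays with 1 mean per group, and p-values were adjusted by Benjamini-Hochberg per comparison. It was tested on simulated data with known changes. Precision is limited by how many arrays there are. Of the probe sets, 20380 have 1 gene symbol in the platform annotation, 691 several and 1555 none, and only the first kind was named. The members and lists were chosen with earlier results of these data known. The rule for names was that any member may be named, with array values for the 12 largest called WT changes and for paralogs. Array values of Eef2, Eif3f and Eif3h were added after seeing the data, as were the background of bright probe sets and the comparisons of successive WT times. Alternatives covered the scale, quantile normalization, the array sets, a replicate block, array weights, the choice of probe set, a filter on dim probe sets and each array left out. The labels give no replicate numbers shared between groups. Runs of consecutive array numbers served as the block, and whether they share a culture or day is not stated. Protein sequences were not used here.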

Additional observations from a re-analysis of the deposited data

Results flagged for a closer look

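Among the 94 groups of 4 untreated arrays (47 members in each line), 5 held an array far from the other 3, and chance alone gives about 1 in 20. In Kin- cells these were Eef1akmt1 on array 5 (level 9.59, the others 9.30 to 9.33) and Eif6 on array 40 (11.22, the others 11.42 to 11.46). In WT cells they were Eif3f on array 13 (13.10, the others 13.27 to 13.28), Eif2s3y on array 36 (2.95, the others 2.89 to 2.90) and Eif4g3 on array 1 (2.53, the others 2.63 to 2.64). The last pair are dim probe sets.

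The WT and Kin- responses differed for 24 members at 1 or more times, tested as the WT change minus the Kin- change with limma; each is given here at the time of its smallest adjusted p. At 2 h, Eif4ebp2 differed by 0.66 (adjusted p = 0.0375), and at 6 h Eef1akmt1 by -0.49 (adjusted p = 0.0225). The other 22 are differences at 24 h. For start codon and ternary complex genes they were -1.25 for Eif1a, -0.90 for Eif1ax, -0.61 for Eif2d, -0.77 for Eif2s2, -0.75 for Eif2s3x, -0.96 for Eif5 and -0.75 for Eif5b. In eIF2B they were -1.03 for Eif2b1 and 0.33 for Eif2b2. In eIF3 they were -1.46 for Eif3b, -0.63 for Eif3c, -0.34 for Eif3d, 0.35 for Eif3f and -0.36 for Eif3l. In the eIF4 group they were -0.79 for Eif4a1, -1.02 for Eif4e, -1.89 for Eif4ebp1 and -0.56 for Eif4h. The remaining ones were -0.94 for Eif5a, -0.86 for Eif6, -0.64 for Eef1d and -1.56 for Eef1aknmt. All 22 adjusted p-values lay between 1.6e-06 (Eif1ax) and 0.0429 (Eef1d).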

How the results depend on the processing

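No median change and no called value turned its direction under the alternatives run, in which single members were followed at 24 h for 25 members. The WT counts moved by more than 1.5 times under the array-set, block, weight and probe-set choices, and the cause was not tested except that arrays 1 to 14 alone hold 1 treated array per group. The shares of all probe sets moved too. With array weights they were 10.3%, 13.9% and 19.8% lower and 18.5%, 13.5% and 21.4% higher at 2, 6 and 24 h. At 2 h the 7 lower members became 11 with the replicate block of consecutive arrays and 11 with array weights. The 1 higher became 3 in arrays 16 to 47, 3 with weights and 0 with the mean of a gene's probe sets. At 6 h the 3 higher became 5 with either the array set as a term or the block. At 24 h the 5 higher became 8 with either and 9 with weights. Within arrays 1 to 14 fewer members were called at each time than with all arrays, as were fewer of all probe sets. The members' median change there was -0.05, -0.20 and -0.19 at 2, 6 and 24 h. The 24 members whose WT and Kin- responses differed were also fewer in arrays 1 to 14. The 1 member called between the untreated lines became 2 on power 0.75 of the values, on untransformed values, with the mean of probe sets, with the dim filter and with only those groups fitted. It became 0 with quantile normalization, 7 in arrays 16 to 47 and 8 with weights or the array set as a term. Of all probe sets, 2.51% were lower and 3.01% higher in Kin- within arrays 16 to 47, and 3.58% and 3.86% with weights. With 1 array left out, the ranges were 3 to 8 and 1 to 1 (lower and higher, 2 h), 14 to 19 and 1 to 4 (6 h), 20 to 24 and 4 to 6 (24 h), 0 to 3 (untreated lines) and 22 to 25 (differing responses). The Kin- count stayed at 0. Of 425 values for these members, 400 kept their call or lack of one, 10 lost the call and 15 gained it. Among values that were not called, some turned sign, as when Eif4ebp2 went from 0.10 to -0.06 without WT 24 h array 39 and -0.02 in arrays 16 to 47, Eif2s3y from 0.01 to -0.06 without that array, and Eif4g3 from 0.02 to -0.01 without WT 0 h array 1. Of the 12 largest members, 11 were also among the 12 largest on power 0.75 and on untransformed values. The comparison of untreated lines could not be fitted with the block, 3 dim members were untested under the filter, and medians were not computed on other powers. Within-run correlations of deviations ran from 0.23 to 0.697, and from -0.0541 to 0.472 once the array set was removed. Signal limits Eif2s3y, Eif4g3 and Eef2kmt, whose probe sets are dim.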
